A study of Mus musculus with 8 samples.

Results

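The oogenesins and their relatives in the PRAME gene family were described in the juvenile mouse ovary through 8 genes of the deposited count table, *Oog1*, *Oog2*, *Oog3*, *Oog4*, *Gm13103*, *C87977*, *Pramef12* and *Pramef8*, of 45583 gene symbols in all. These 8 genes were selected on the comparison of GOAT KO with WT in these same libraries, so their own differences between the groups are given below as a description and carry no test. RNA came from whole ovaries of 3-week-old mice on the C57/Bl6 strain, and 4 WT and 4 GOAT KO animals gave 1 library each. GOAT KO mice lack ghrelin-O-acyltransferase, the enzyme that attaches a fatty acid to the hormone ghrelin and is encoded by *Mboat4*, in every cell of the body, and both genotypes were littermates from crosses of heterozygous parents. Libraries are named by group and animal number, WT 1118, 1119, 1120 and 1121 and GOAT KO 1139, 1140, 1141 and 1146.

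The PRAME family encodes leucine-rich repeat proteins, named after an antigen first found in melanoma. In the mouse the family has expanded into tandem arrays of closely similar genes, and many of them are used in germ cells, the oogenesins in oocytes. Human PRAME is known as a receptor subunit that brings targets to ubiquitin ligases built on Cullin 2. In whole ovary RNA the oocyte is a small part of a mixture of granulosa, theca, stromal and other cells, and fewer oocytes cannot be told apart from less RNA per oocyte.

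Of the 8 genes, 7 lay on distal chromosome 4 within 0.996 Mb (GRCm38 chr4:143412426-144408464), together with 4 other family genes that were tested. *Oog1* lay apart, on chromosome 12 (chr12:87602688-87608850, plus strand). *Gm13103* (chr4:143846497-143853637, plus strand, named *Pramel27* in RefSeq) stood in the middle of the array. *Oog3* (chr4:144157557-144162663, minus strand), *Oog2* (chr4:144190719-144196934, plus strand) and *C87977* (chr4:144206775-144213318, minus strand, *Pramel29* in RefSeq) followed as close neighbours of each other. *Pramef8* (chr4:143412426-143421091, plus strand) and *Oog4* (chr4:143437164-143450324, minus strand) lay at one end and *Pramef12* (chr4:144391674-144408464, minus strand) at the other. The coding sequences held between 463 and 502 codons, and pairs of them were between 59.1% and 96.2% identical. *C87977* and *Oog1* were the closest pair, at 96.2%, and *Gm13103* and *Oog3* followed at 89.5%, whereas *Pramef12* and *Pramef8* were at most 65.6% identical to any of the 8.

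The oogenesin promoters were also alike in sequence. RefSeq promoter windows on GRCm38.p6 (250 bases before to 50 after the transcript start) were found for 7 of the 8 genes. A block of 14 letters, GGGTGTGGCNACAA, was read from the *Gm13103* promoter as the stretch best kept among the oogenesin promoters, so it was chosen after the sequences were seen. It was present in 6 of these 7 promoters, all but that of *Pramef12*, and on both strands it was found in 10 of 27025 mouse promoters (0.04%), all of them of the PRAME family genes tested here. The letters TATATA followed it in the same 6 promoters, between 8 and 33 bases before the annotated start, and occurred in 5.94% of all promoters. TAATTG, the element known for the oocyte factor NOBOX, was found in 4 of the 7 windows and in 8.15% of all, and the E-box CANNTG in 7 of the 7 and in 72.15% of all. The 5 promoters below are of genes that differed between libraries as described further on, *Gm13103* and *Gm13089* with lower and *Oog3*, *Oog2* and *C87977* with higher counts. They do not cover all such genes. *Gm13023*, also with higher counts, is not shown, and held the block at 48 and TATATA at 13 bases before the start. Each printed stretch runs from 150 bases before to 20 after the start, and capitals mark the shared block and TATATA. They cover chr4:143846347-143846516 (plus strand) for *Gm13103*, chr4:143702692-143702861 (minus strand) for *Gm13089*, chr4:144162632-144162801 (minus strand) for *Oog3*, chr4:144190567-144190736 (plus strand) for *Oog2* and chr4:144212998-144213167 (minus strand) for *C87977*.
Gm13103: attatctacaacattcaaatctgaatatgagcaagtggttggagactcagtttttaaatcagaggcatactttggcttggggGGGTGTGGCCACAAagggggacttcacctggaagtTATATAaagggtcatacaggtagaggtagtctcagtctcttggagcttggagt
Gm13089: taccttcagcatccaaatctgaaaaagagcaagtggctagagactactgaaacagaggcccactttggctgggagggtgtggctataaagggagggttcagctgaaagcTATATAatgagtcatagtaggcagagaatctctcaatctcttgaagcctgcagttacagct
Oog3: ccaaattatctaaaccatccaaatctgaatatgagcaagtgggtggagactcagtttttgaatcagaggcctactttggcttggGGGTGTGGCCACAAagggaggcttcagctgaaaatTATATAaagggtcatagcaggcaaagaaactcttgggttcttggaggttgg
Oog2: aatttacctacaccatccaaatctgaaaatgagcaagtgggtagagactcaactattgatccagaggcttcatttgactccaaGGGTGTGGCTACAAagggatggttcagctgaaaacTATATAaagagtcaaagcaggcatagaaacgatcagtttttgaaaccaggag
C87977: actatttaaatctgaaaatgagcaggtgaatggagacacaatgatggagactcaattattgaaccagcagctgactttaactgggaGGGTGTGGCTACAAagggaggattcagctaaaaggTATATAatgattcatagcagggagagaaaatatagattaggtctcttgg

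The windows of *Gm13103* and *Oog3*, whose counts differed between libraries in opposite directions, were 80.3% identical, and both held the block, at 68 and 66 bases before the start. *C87977* and *Oog1* shared 82.7% of their window, with the block at 64 and 43 bases. *Oog2* was 94.3% identical over this window to *Gm13084*, a family gene of the same array. The promoter of *Gm13089* held TATATA but no exact match to the block, which says only that these letters were not in the window.

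Depth was even, with between 16147216 and 19481798 counts on genes per library. GOAT KO 1139 stood apart from the others on multidimensional scaling, at 1.21 on the first dimension against -0.473 to 0.171 for the other 7, and it was the one library with much fat cell RNA: the 3 markers *Adipoq*, *Plin1* and *Cfd* summed to 290.1 CPM (counts scaled to library size by the TMM method) there and to between 8.05 and 20.6 CPM elsewhere. *Mboat4* itself went against the labels, with 1, 1, 1 and 3 counts in the libraries labelled WT and 5, 7, 7 and 8 in those labelled GOAT KO. At so few counts this is a weak check of the labels. *Leprotl1*, 10.4 kb from *Mboat4* on chromosome 8 and chosen after its values were seen, separated the 2 groups, at 43.1, 51.0, 54.6 and 52.2 CPM in the WT libraries and 22.3, 24.0, 24.2 and 25.7 CPM in GOAT KO, with GOAT KO 1139 among the latter (log2 fold change -1.06, SE 0.08, adjusted p = 0.000487, edgeR quasi-likelihood test). Results are therefore given for the libraries as labelled, with and without GOAT KO 1139.

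Transcripts of all 8 genes were detected. Compared per length, as CPM per kilobase of the union of annotated exons, *Oog3* was highest in WT, with a median of 23.9 and a range of 23.0 to 25.6. *Pramef12*, known from the testis as a gene that spermatogonial stem cells need, followed at 18.9, ranging from 17.9 to 22.3. *C87977* at 8.69 (range 7.75 to 9.73) and *Gm13103* at 7.62 (range 6.64 to 9.03) came next. These neighbours overlapped with each other and could not be ordered, while the WT ranges of the other neighbours among *Oog3*, *Pramef12*, *C87977*, *Gm13103*, *Oog2* and *Oog4* did not overlap.
Lower levels were found for *Oog2* at 3.23 and *Oog4* at 1.66 CPM per kilobase. *Oog1*, the first oogenesin to be described, had 0.558 and *Pramef8* 0.170 CPM per kilobase by their deposited counts, which were 22 to 43 and 5 to 18 per library. Both genes had more reads listed across their own splice junctions than counts in 8 of 8 libraries. Over the 4 WT libraries *Oog1* had 252 junction reads beside 99 counts, and *Pramef8* had 94 beside 51. A single junction had more reads than the gene had counts in 6 libraries for *Oog1* and in 5 for *Pramef8*. The counts of these 2 genes thus left out reads listed at their junctions, for a reason that was not tested, and their place in the order is uncertain.

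**Figure D1:**
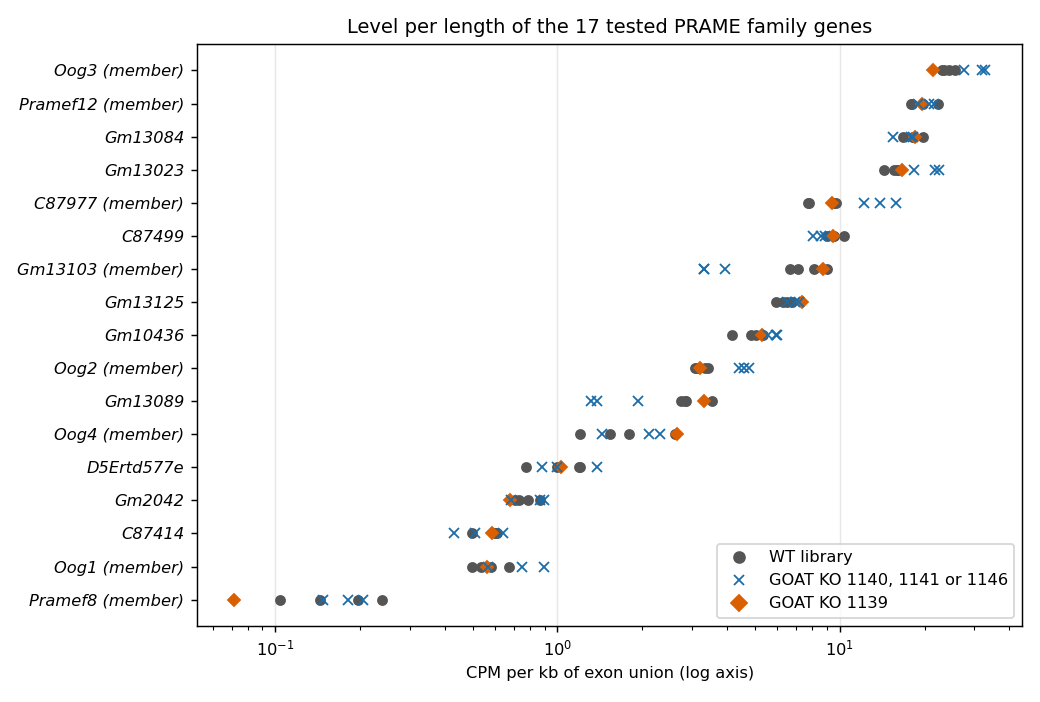
Level of each of the 17 tested PRAME family genes, on a log axis of CPM per kilobase of exon union, with grey circles for the 4 WT libraries, blue crosses for GOAT KO 1140, 1141 and 1146 and an orange diamond for GOAT KO 1139; the 8 selected genes are marked as members. *Oog3* and *Pramef12* lie at the top and *Pramef8*, by its deposited counts, at the bottom, and the crosses of *Gm13103* and *Gm13089* lie to the left of their grey circles while the diamonds do not.

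Part of these levels cannot be assigned to 1 gene with certainty, because reads were 50 bases long and the genes are near copies. How the authors' counting treated reads that fit several genes, or the strand, is not given in the sources used here. Of all 50-base stretches in *Oog1* transcripts, 89.0% also occurred in another gene, above all in *Gm2042* (85.8%). *Gm13103* shared 43.3% with other genes, nearly all with *Gm13088*, and *Oog2* shared 33.4%, mostly with *Gm13084*. For *C87977* the share was 24.0% and for *Oog3* 19.7%. *Oog4* shared 0.707%, and *Pramef12* and *Pramef8* shared none.

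With all 8 libraries, *Gm13103* had the largest fold change between the groups among the 8 genes. Without WT 1118 its log2 fold change was -0.60 against 0.62 for *C87977*, and without GOAT KO 1146 -0.54 against 0.58. The level of *Gm13103* was 17.9, 13.2, 16.1 and 14.1 CPM in WT 1118, 1119, 1120 and 1121, and 17.35, 7.76, 6.55 and 6.57 CPM in GOAT KO 1139, 1140, 1141 and 1146. GOAT KO 1139 lay inside the WT range, and the other 3 GOAT KO libraries lay below every WT library. The group means were 15.3 ± 2.12 CPM in the WT libraries and 9.56 ± 5.23 CPM in GOAT KO (SD, n = 4 each), and the log2 fold change was -0.68 (SE 0.28). Without GOAT KO 1139 the mean of the remaining GOAT KO libraries was 6.96 ± 0.694 CPM (SD, n = 3) and the log2 fold change -1.14 (SE 0.14).

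*C87977* moved the other way. It had 29.0, 23.1, 28.5 and 23.3 CPM in the WT libraries and 27.9, 47.3, 41.5 and 36.4 CPM in GOAT KO 1139, 1140, 1141 and 1146. Again GOAT KO 1139 lay within WT, and the other 3 lay above all WT libraries. The log2 fold change was 0.56 (SE 0.15), and 0.68 (SE 0.12) without GOAT KO 1139.

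*Oog2* and *Oog3*, which lie beside *C87977*, were also higher in GOAT KO 1140, 1141 and 1146, with smaller fold changes. *Oog2* had 7.74, 8.50, 8.29 and 7.63 CPM in the WT libraries and 7.96, 11.9, 11.4 and 10.9 CPM in GOAT KO, and *Oog3* had 47.7, 43.8, 43.0 and 45.5 CPM in the WT libraries and 39.9, 59.5, 61.1 and 51.4 CPM in GOAT KO. For both genes GOAT KO 1140, 1141 and 1146 lay above the WT range. GOAT KO 1139 lay within it for *Oog2* and below it for *Oog3*. The log2 fold changes were 0.39 (SE 0.13) for *Oog2* and 0.24 (SE 0.12) for *Oog3*, and 0.50 (SE 0.10) and 0.35 (SE 0.08) without GOAT KO 1139.

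With all 4 GOAT KO libraries the groups overlapped in each of the 8 genes, whereas 2.92% of all tested genes (484 of 16601) had groups that did not overlap. GOAT KO 1140, 1141 and 1146 all lay on one side of the WT range in the 4 genes above, and in 6.55% of all tested genes. Having been selected on this contrast, the 4 genes are given beside that share as a description. GOAT KO 1139 lay inside the WT range for 5 of the 8 genes, beside 65.14% of all tested genes.

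In the remaining 4 genes the groups overlapped with GOAT KO 1139 left out as well. *Pramef12* had 57.4, 46.0, 50.9 and 46.3 CPM in the WT libraries and 50.4, 53.2, 55.7 and 48.9 CPM in GOAT KO, a log2 fold change of 0.05 (SE 0.08). *Oog4* ranged from 2.39 to 5.16 CPM in the WT libraries and from 2.85 to 5.26 CPM in GOAT KO, with a log2 fold change of 0.25 (SE 0.25). *Oog1* had 1.43, 1.22, 1.65 and 1.31 CPM in the WT libraries and 1.38, 1.83, 2.20 and 1.40 CPM in GOAT KO, a log2 fold change of 0.29 (SE 0.21).
This gene, whose protein is known to bind Ras, thus had overlapping groups at its low count, which left out junction reads. *Pramef8* had a log2 fold change of -0.19 (SE 0.35), which became 0.03 without GOAT KO 1139.

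**Figure D2:**
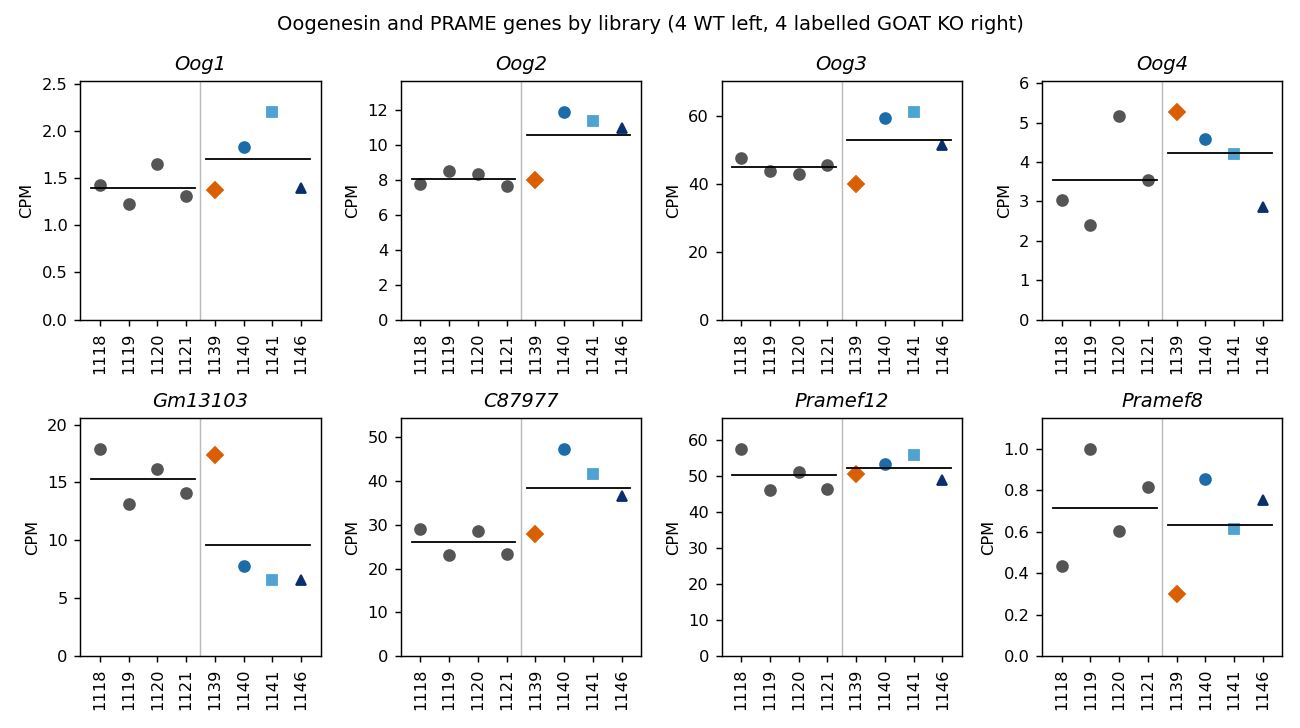
CPM of each of the 8 genes in every library, with 1 point per library labelled by animal number, WT in grey on the left of each panel, the libraries labelled GOAT KO on the right (GOAT KO 1139 as an orange diamond), a bar at each group mean and axes that start at 0. In *Gm13103*, *C87977*, *Oog2* and *Oog3* the points of GOAT KO 1140, 1141 and 1146 lie outside the WT range (6.55 to 7.76 CPM against 13.2 to 17.9 CPM for *Gm13103*), whereas the diamond does not follow them.

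With all 8 libraries, 2 of the 8 genes passed the study's criterion, a log2 fold change beyond 0.5 in either direction at an unadjusted p under 0.05, *Gm13103* as lower and *C87977* as higher. Of all 16601 genes tested, 278 passed it (1.67%), 119 as lower (0.717%) and 159 as higher (0.958%). Scaled to the summed counts of oocyte genes in place of TMM, the split turned to 219 lower and 106 higher, with a median log2 fold change of -0.09 over all genes tested. As these genes were selected on this contrast, nothing is read from that difference. All 8 genes passed the filter on low counts, and their median log2 fold change was 0.24, beside -0.0003 for all genes tested. At an adjusted p under 0.05, edgeR called 4 genes of the whole table (0.0241%), and 14 (0.0832%) without GOAT KO 1139. Without GOAT KO 1139, *Oog2* joined the other two, making 3 of the 8 genes beside 329 of 16827 (1.96%). The call of *C87977* depended on scaling: in the oocyte scaling its log2 fold change was 0.47 (SE 0.13), under the limit of 0.5. The call of *Gm13103* was lost when WT 1118, WT 1120, GOAT KO 1140, GOAT KO 1141 or GOAT KO 1146 was left out, and that of *C87977* when GOAT KO 1140 was, with log2 fold changes of -0.66 to -0.54 and of 0.44 in those fits.

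**Figure D3:**
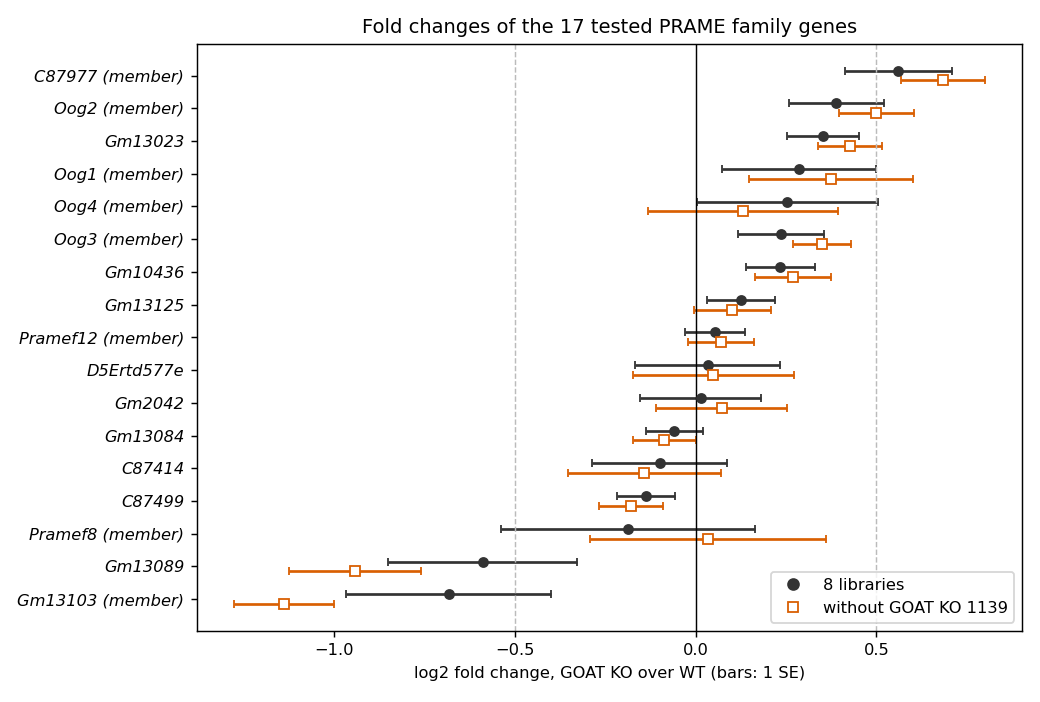
Log2 fold change of GOAT KO over WT with 1 SE for the 17 tested PRAME family genes, from all 8 libraries (filled circles) and without GOAT KO 1139 (open squares), with dashed lines at -0.5 and 0.5 and the 8 selected genes marked as members. *Gm13103* (-0.68, then -1.14) and *Gm13089* (-0.59, then -0.94) lie at the low end and *C87977* (0.56, then 0.68) at the high end, while *Pramef12* and *Gm13084* stay near 0.

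The other PRAME family genes were not among the selected genes, but their list was also drawn up with earlier results of these data known. They were read from the same fit. Some are near copies of selected genes, so their counts may not be independent of those. Of its 50-base stretches, *Gm2042* shared 65.2% with *Oog1*, *Gm13084* 36.6% with *Oog2* and *Gm13023* 24.2% with *C87977*. *Gm13089* and *C87499* shared 0.057% and 0.044% with any other gene, and *Gm13125* shared none. The count table held 50 other family genes, of which 26 had no count in any library and 9 passed the filter. Among these 9, 1 was called, *Gm13089* (*Pramel23* in RefSeq), and 0 were called at an adjusted p under 0.05 by edgeR, DESeq2 or limma-voom (3 at an unadjusted p under 0.05 in each). The share of all tested genes at that unadjusted p is not given here, so nothing is read from the 3 genes. The median log2 fold change of the 9 genes was 0.01. *Gm13089*, in the array between *Oog4* and *Gm13103*, had 6.38, 5.17, 4.94 and 5.13 CPM in the WT libraries and 5.98, 2.38, 3.48 and 2.50 CPM in GOAT KO. As for *Gm13103*, GOAT KO 1139 lay inside the WT range and the other 3 below it. The log2 fold change was -0.59 (SE 0.26, unadjusted p = 0.0462, adjusted p = 0.983, edgeR), and without GOAT KO 1139 it was -0.94 (SE 0.18, unadjusted p = 0.000359, adjusted p = 0.211). Leaving out any 1 of the other 7 libraries instead cost *Gm13089* its call, with log2 fold changes between -0.63 and -0.44, so that 0 of these 9 or 10 tested genes were called.

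The 5 other family genes with the highest level per length were *Gm13084*, *Gm13023*, *C87499*, *Gm13125* and *Gm10436*. *Gm13023* had the pattern of *C87977*, to which its coding sequence is 96.6% identical, with 28.3, 26.1, 29.1 and 28.8 CPM in the WT libraries and 30.1, 40.6, 39.4 and 33.2 CPM in GOAT KO. Its log2 fold change of 0.35 (SE 0.10, unadjusted p = 0.00455, adjusted p = 0.983, edgeR) was below the limit of 0.5. All 4 GOAT KO libraries lay above the WT range here, GOAT KO 1139 by the least. *Gm10436* on chromosome 12 had a log2 fold change of 0.23 (SE 0.10, adjusted p = 0.983, edgeR), and the other 3 had log2 fold changes between -0.14 and 0.13. GOAT KO 1140, 1141 and 1146 all lay on one side of the WT range in 4 of the 9 other family genes, beside 6.55% of all tested genes. Apart from *Gm13089* and *Gm13023*, these were 2 genes outside the array. *Gm10436* had 17.7, 17.9 and 16.6 CPM there against 12.4 to 15.9 CPM in WT. *C87499* had 18.7, 17.4 and 19.3 CPM against 19.6 to 22.6 CPM.

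Order along the array did not follow direction. Going by position, *Gm13089* was lower, *Gm13023* higher, *Gm13103* lower and *Oog3*, *Oog2* and *C87977* higher in GOAT KO 1140, 1141 and 1146 than the WT mean, while *Gm13084*, between *Gm13023* and *Gm13103*, had log2 ratios to that mean of -0.03, -0.01 and -0.24. Beyond *C87977*, the ratios of *Gm13125* were 0.16, 0.12 and 0.02 and those of *Pramef12* 0.09, 0.15 and -0.04. For *Gm13103* the log2 ratio to the WT mean was -0.98, -1.23 and -1.22 in these libraries and 0.18 in GOAT KO 1139. For *C87977* it was 0.86, 0.68 and 0.49, and 0.10 in GOAT KO 1139. The ratio of *Gm13103* to *C87977* within a library, which no library scaling can change, was 0.618, 0.570, 0.565 and 0.604 in WT, 0.621 in GOAT KO 1139 and 0.164, 0.158 and 0.180 in the other GOAT KO libraries. This pair was chosen after its values were seen.

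**Figure D4:**
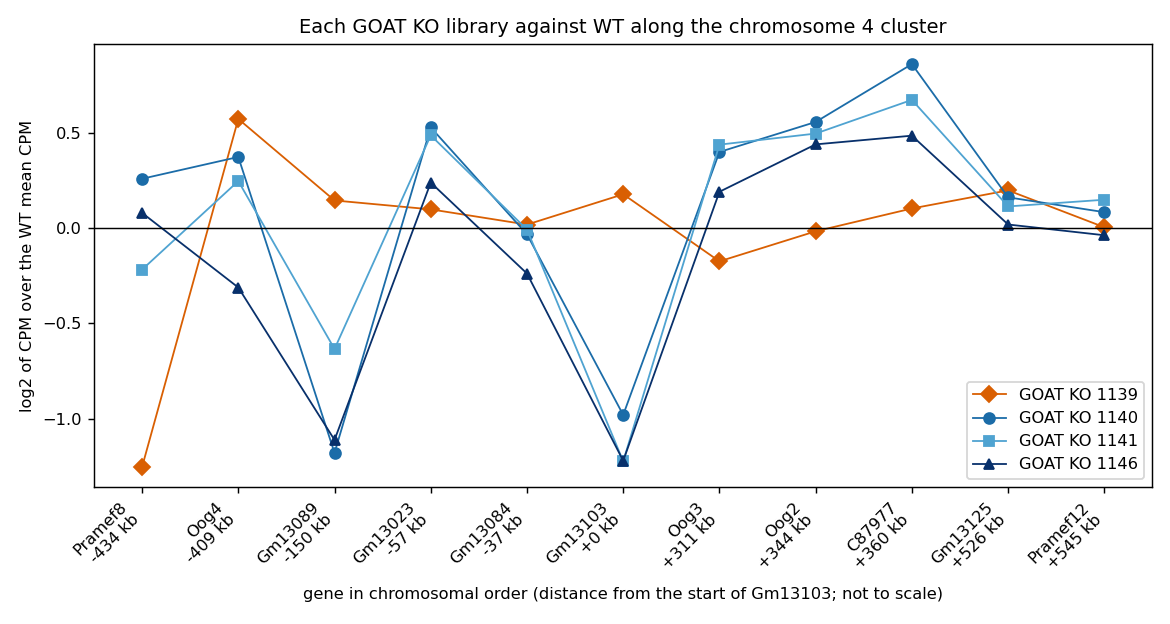
Log2 ratio of each GOAT KO library to the WT mean CPM for the 11 tested PRAME family genes of the chromosome 4 array, placed in chromosomal order with the distance from the start of *Gm13103* under each name. The lines of GOAT KO 1140, 1141 and 1146 dip together at *Gm13089* and *Gm13103* and rise together at *Gm13023* and from *Oog3* to *C87977*, while that of GOAT KO 1139 (0.18 at *Gm13103*, 0.10 at *C87977*) runs near 0 there and departs at *Pramef8* and *Oog4*, which have few counts.

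Since near copies can exchange reads, counts of partners were also added up. *Gm13088* alone had 0, 2, 0 and 1 counts in WT and 0, 6, 6 and 13 in GOAT KO. Summed with it, *Gm13103* gave 289, 239, 294 and 259 counts in WT and 290, 133, 134 and 126 in GOAT KO (log2 ratio of mean CPM -0.63, and -1.05 without GOAT KO 1139). *Gm13088* added few counts, so this sum lay close to *Gm13103* alone, and exchange of reads was not tested. The sum of *C87977* and *Gm13023* was between 49.2 and 57.7 CPM in the WT libraries and was 58.0, 87.9, 80.9 and 69.6 CPM in GOAT KO, a log2 ratio of 0.46. For *Oog2* with *Gm13084* the sums overlapped, at 44.0 to 49.9 CPM in the WT libraries and 43.8 to 49.9 CPM in GOAT KO (log2 ratio 0.03). *Gm13084* supplied most of these reads, and its own SD was 2.71 CPM in the WT libraries and 2.92 CPM in GOAT KO, so this sum cannot resolve the smaller count of *Oog2*. *Oog1* with *Gm2042* and *Gm10436* summed to between 16.2 and 19.8 CPM in WT, and to 19.2 CPM in GOAT KO 1139, within that range, and 22.3, 22.2 and 20.7 CPM in the other GOAT KO libraries, above it (log2 ratio 0.21, and 0.25 without GOAT KO 1139). *Gm10436* supplied most of these reads, with a WT mean of 14.4 CPM against 1.40 CPM for *Oog1*, so this sum cannot resolve *Oog1* either.

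Reads across splice junctions gave a second view, with fewer reads than counts for 6 of the 8 genes and more for *Oog1* and *Pramef8*. Sums for *Oog1* were 79, 55, 71 and 47 junction reads in WT and 63, 83, 77 and 65 in GOAT KO, and those for *Pramef8* 20, 21, 25 and 28 in WT and 15, 16, 18 and 22 in GOAT KO. The groups overlapped for both genes. The most read junction of *Gm13103* (intron chr4:143850991-143851512) had 16, 9, 19 and 21 reads in WT. It had 20 reads in GOAT KO 1139, none listed in GOAT KO 1140, 10 in GOAT KO 1141 and none listed in GOAT KO 1146. Over the 3 junctions of *Gm13103* with at least 5 reads, sums were 16, 9, 33 and 35 in WT and 35, 9, 13 and 0 in GOAT KO, so the groups overlapped. For *C87977* the sums were 37, 47, 78 and 51 in WT and 52, 84, 75 and 59 in GOAT KO, which overlapped as well.
Junction lists were uneven within a group: the single *Oog3* junction over this limit (intron chr4:144159683-144160204) was not listed in WT 1118 and WT 1119, although *Oog3* had 770 and 788 counts there. One junction of *Pramef12*, a gene with level counts, was listed in GOAT KO 1140, 1141 and 1146 only, with 8, 12 and 13 reads (intron chr4:144395160-144395679). This junction was singled out after its values were seen.

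Other oocyte genes were set beside the family. Of 22 oocyte genes, all tested and including the zona pellucida genes and the growth factor genes *Gdf9* and *Bmp15*, 2 were called, both higher, and 0 at an adjusted p under 0.05 by edgeR, DESeq2 or limma-voom (5 at an unadjusted p under 0.05 in each). Nothing is read from the 5 genes, as the share of all tested genes at that unadjusted p is not given here. Without WT 1118, 0 were called, and without GOAT KO 1141, 1. Their median log2 fold change was 0.09. The called genes were *Khdc3*, of the subcortical maternal complex, at 2.09 ± 0.547 CPM in the WT libraries and 3.07 ± 0.238 CPM in GOAT KO (SD, n = 4 each, adjusted p = 0.983, edgeR), and *Sohlh1*, a transcription factor of early oocytes, at 2.13 ± 0.563 and 3.89 ± 1.74 CPM (adjusted p = 0.983, edgeR). The summed level of the list was 2075 to 2487 CPM in the WT libraries and 2161 to 2550 CPM in GOAT KO, and overlapped. The 8 genes together came to 6.62%, 6.68%, 6.97% and 6.87% of that sum in WT and to 6.53%, 7.72%, 7.19% and 7.37% in GOAT KO, where again GOAT KO 1139 was the one on the WT side. Of 5 tested genes, those of the Cullin 2 ligase (*Cul2*, *Rbx1* and both elongins) and *Uhrf1*, a protein that a mouse PRAME-like receptor is known to target through it, 0 were called and 0 were at an unadjusted p under 0.05 by edgeR, DESeq2 or limma-voom (median log2 fold change 0.08).

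Levels across the 8 libraries varied together in part of the family. Pearson's r of log2 CPM is given as a description over 8 libraries that share their scaling. It was -0.95 between *Gm13103* and *Oog2* and 0.91 between *Oog2* and *C87977*, the lowest and the highest among pairs of the 8 genes. Other pairs lay near 0, such as *Oog3* and *Oog4* at -0.005. As the 8 genes were selected on the contrast of the groups, these values in part restate the split between libraries. With the summed oocyte list, r was 0.96 for *Pramef12* and -0.23 for *Gm13103*. Outside the family, the 5 genes most like *Gm13103* were *Nptx1*, *Gm14132*, *Tma16*, *2310030G06Rik* and *Scn2b*, with r between 0.94 and 0.95. Those most like the mean of the 8 genes were *Igf2*, *Tctn1*, *Fbxw24*, *Atp6v0e2* and *Srp14*, with r between 0.94 and 0.98. None of these 10 lies on chromosome 4.

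Genes beside the array that are not of the PRAME family were examined by the same criterion. Within 1 Mb of the 7 genes on chromosome 4, 11 such genes were tested, 1 was called (*Gm13058*, log2 fold change -1.13, SE 0.46, adjusted p = 0.983, edgeR), and their median log2 fold change was -0.09. *Gm13058* was near the floor, at 0.667 to 1.18 CPM in WT and 0.778, 0.0611, 0.410 and 0.291 CPM in GOAT KO. Without WT 1118, WT 1121, GOAT KO 1140 or GOAT KO 1141, 0 of these 11 genes were called. Over the stretch from 20 Mb before the start of *Gm13103* to the chromosome's end, 19 of 433 genes were called (4.39%), and 33 of 440 (7.50%) without GOAT KO 1139. The rest of chromosome 4 had 2.36% called, and 2.65% without GOAT KO 1139. On the other 19 chromosomes the share was between 0.477% and 2.24%, and between 0.711% and 2.76% without that library. Among windows of 10 Mb with 8 libraries, the highest share on the chromosome lay outside this stretch, from 40 to 30 Mb before *Gm13103* (6 of 61, 9.84%), and without GOAT KO 1139 it was the window that starts at *Gm13103* (10 of 88, 11.4%). In the left-out GOAT KO 1139, 11 of these 33 genes lay beyond the WT range in the called direction, whereas the same count for GOAT KO 1140, 1141 and 1146, each left out in turn, was 14 of 17, 15 of 16 and 14 of 20. Among the genes called elsewhere in the genome, the count was 138 of 292 (47.3%) for GOAT KO 1139, and the share was 52.7%, 56.4% and 50.7% for GOAT KO 1140, 1141 and 1146. Each set of genes was called by the fit without that library, so these shares depend in part on which libraries the fit kept.
*Grik3*, a kainate receptor subunit gene 18.4 Mb from *Gm13103* that was picked out after its values were seen, had 73.2, 68.5, 56.0 and 59.4 CPM in WT, 66.4 CPM in GOAT KO 1139 and 238.0, 216.5 and 216.7 CPM in the others. It thus parted the libraries as *Gm13103* and *C87977* did. *Dab1*, 40.2 Mb from *Gm13103* and chosen in the same way, did not: it had 0.927 to 1.12 CPM in WT, and its 6.94 CPM in GOAT KO 1139 lay within the 4.64 to 8.25 CPM of the other GOAT KO libraries (log2 fold change 2.70, SE 0.21, adjusted p = 0.000487, edgeR). Beside *Oog1* on chromosome 12, 1 of 20 genes within 1 Mb was called.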

How the data were processed

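Total RNA of 8 ovaries was sequenced as single reads of 50 bases. The authors aligned the reads to mm10 (GRCm38) with TopHat2 2.0.14 and deposited raw counts per gene symbol, without normalization, and read counts per splice junction. Their StringTie 1.0.4 transcripts and mapping summary were not used here. The counting tool and its use of strand are not given in the sources used here. The authors left 1 library of each group out. Here all 8 were kept.

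Counts were analysed in R 4.3.3 with edgeR 4.0.16: TMM scaling, filterByExpr (equivalent of 10 counts at median depth in 4 libraries, and 15 summed over all), and the quasi-likelihood test with Benjamini-Hochberg adjustment over 16601 genes. It was tested on simulated data. The SE of a log2 fold change was obtained by dividing it by the square root of F. Alternatives were RLE size factors, library sizes from the oocyte list, no filter, DESeq2 1.42.0, limma-voom (limma 3.58.1), each library left out, and WT 1120 and GOAT KO 1139 left out together. Every pair of libraries within a group differed by more than sampling noise, with a mean chi-square per gene of 4.21 to 27, so each counted as 1 replicate.

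The 8 genes, the gene lists and the tests were chosen with earlier results of these data known. Named genes are these 8, of the other family genes those called and the 5 highest per length, called oocyte and Cullin 2 genes, the 5 genes most alike to *Gm13103* and to the mean of the 8, and *Mboat4*. Any other gene named was chosen after its values were seen. Marker lists of granulosa, theca and stroma, leukocyte, surface epithelium, oviduct, fat and blood cells were summed beside that of oocytes. Of listed family symbols, 10 showed neither similarity to the 8 genes nor a RefSeq PRAME name, and were left out. Gene models came from GENCODE M21, promoters from RefSeq. The mice were littermates of heterozygous crosses and group-housed, but which animals shared a litter or cage is not given in the sources used here, so no term for litter was fitted.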

Additional observations from a re-analysis of the deposited data

Results flagged for a closer look

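Among the 17 tested PRAME family genes, each group of 4 libraries was examined for a library far from the other 3, which gave 34 groups. Chance alone would pick out about 1 in 20 groups. The level of *Gm13103* in GOAT KO 1139 was 17.35 CPM, against 6.55 to 7.76 CPM in the other 3 GOAT KO libraries, with a gap of 0.888 of the group's range. *C87414* stood at 1.47 CPM in WT 1121, against 1.78 to 1.81 CPM in the other WT libraries, and *Gm13089* at 6.38 CPM in WT 1118, against 4.94 to 5.17 CPM. GOAT KO 1139 is also the library with 290.1 CPM of fat cell markers, and the part of this in the *Gm13103* value was not tested.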

How the results depend on the processing

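Without a filter on low counts 691 genes were called in place of 278, of 27459 tested, and 3 other PRAME family genes in place of 1. Scaled to the oocyte list, 1 of the 8 genes was called (*Gm13103*), 1 oocyte gene and 2 genes beside the array. RLE size factors, DESeq2, limma-voom and the fit without WT 1120 and GOAT KO 1139 moved none of these counts by more than 1.5 times. Leaving out 1 library at a time gave 231 to 437 called genes (most without WT 1120), 0 to 3 of the 8 genes, 0 to 1 other family genes, 0 to 3 oocyte genes and 0 to 1 genes beside the array, while no Cullin 2 gene was called in any fit. The causes were not tested. The log2 fold change of *Gm13103* ranged from -1.14, without GOAT KO 1139, to -0.54. *Gm13103* kept a negative and *C87977*, *Oog1*, *Oog2*, *Oog3* and *Oog4* a positive sign throughout, and *Pramef8* (-0.36 to 0.03) and *Pramef12* (-0.03 to 0.12) changed sign. The summed level of the 8 genes in WT was 65.1 CPM per kilobase of exon union and 69.5 per kilobase of the longest transcript, and the junction reads of the 8 genes over all 8 libraries were 1772 and 1669 with a limit of 5 or 20 reads. *Pramef8* and *Oog1* are limited by few counts, which were below their junction reads, and shared sequence limits *Oog1*, *Gm13103* and *Oog2*. No paired analysis was possible because the groups share no replicate number.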

Other observations

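The marker lists for other cells of the ovary gave the following sums per library. Summed granulosa markers were 8395 to 9727 CPM in WT and 9769 to 10250 CPM in GOAT KO. These ranges did not overlap but nearly met, and of all single genes tested 2.92% had groups that did not overlap. Of the 10 granulosa genes, 0 were called with 8 libraries and 1 without GOAT KO 1139, the follicle-stimulating hormone receptor gene *Fshr*, named after its values were seen (log2 fold change 0.59, SE 0.14, adjusted p = 0.498, edgeR). Theca and stroma markers were 2830 to 3848 CPM in WT and 3295 to 4120 CPM in GOAT KO, surface epithelium 102.1 to 131.7 and 114.8 to 146.2 CPM, oviduct 3.78 to 10.6 and 5.63 to 10.5 CPM and blood 146.3 to 591.1 and 160.4 to 336.3 CPM. Leukocyte markers were 86.4 to 113.5 CPM in WT and 65.8 to 88.5 CPM in GOAT KO, with 1 of 6 called, the macrophage lysozyme gene *Lyz2* (log2 fold change -0.52, SE 0.13, adjusted p = 0.983, edgeR). All 3 fat markers were called with 8 libraries and 0 without GOAT KO 1139.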
